A study of Homo sapiens with 8 samples.

Results

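The transcripts of 9 integrin subunits, the alpha subunits ITGA2, ITGA3, ITGA5, ITGA6 and ITGAV and the beta subunits ITGB1, ITGB3, ITGB4 and ITGB5, were examined in RNA of BEAS-2B cells before and after immunoprecipitation with an antibody against 8-oxo-7,8-dihydroguanosine (8-oxoG), the common oxidation product of guanine. The subunits were taken by gene name, a choice made with earlier results of these data known. They are 9 of the 58735 genes in the deposited tables, all 9 passed the filter on low counts that left 18242 genes, and 57 of their 102 annotated isoforms passed the same filter at the isoform level. BEAS-2B, an established line of human bronchial epithelium, was grown here on collagen-coated inserts with medium on the apical side. That medium was removed before the cells were exposed at the air–liquid interface. The 4 groups were input RNA from cells held in clean air (CA_IN) or in air with 1 ppm formaldehyde (FA_IN) for 2 h, each followed by 6 h of recovery, and the immunoprecipitated RNA of the same cultures (CA_IP and FA_IP). Each group held 2 libraries, numbered 1 and 3, and the rRNA-depleted RNA of each culture was split into its input and its pull-down.

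Integrins are receptors made of 1 alpha and 1 beta chain that hold epithelial cells to the matrix and signal through the proteins on their cytoplasmic tails. In airway epithelium ITGB1 pairs with ITGA2 to bind collagen, with ITGA3 to bind laminin and with ITGA5 to bind fibronectin. ITGA6 pairs with ITGB4 in the hemidesmosome, the laminin-binding anchor of basal cells, and ITGAV pairs with ITGB3 or ITGB5 in receptors for vitronectin and other RGD-bearing ligands. Alternative splicing gives ITGA6 and ITGA3 either of 2 cytoplasmic tails, called A and B.

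The sequences that separate the isoforms discussed here were read from GENCODE 44 on GRCh38 and are given 5′ to 3′. The first 2 are the coding parts of the exons whose inclusion gives the A tail, in which the capitals mark the stop codon, and without which translation runs on into the B tail. The ITGA6 exon (chr2:172501772-172501879, plus strand, exon 25 of ITGA6-201) is absent from ITGA6-202, and the ITGA3 exon (chr17:50088225-50088335, plus strand, exon 25 of ITGA3-202) is absent from ITGA3-201.
ITGA6 tail A exon: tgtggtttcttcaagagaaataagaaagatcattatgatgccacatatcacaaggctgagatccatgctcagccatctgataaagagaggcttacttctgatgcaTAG
ITGA3 tail A exon: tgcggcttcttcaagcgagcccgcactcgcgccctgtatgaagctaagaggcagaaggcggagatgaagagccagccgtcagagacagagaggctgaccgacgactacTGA
The next 3 separate isoforms with few counts whose pattern over the libraries is described further on, and hold no marked bases. The first is a coding exon of 117 bases (chr2:172472774-172472890, plus strand) that ITGA6-206 has and ITGA6-202 lacks. The others are adjacent coding exons of ITGAV-201 (chr2:186630797-186630858 and chr2:186633329-186633374, plus strand) that ITGAV-202 lacks.
ITGA6-206 exon: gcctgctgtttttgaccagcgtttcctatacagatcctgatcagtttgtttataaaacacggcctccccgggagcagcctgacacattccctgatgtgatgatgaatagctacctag
ITGAV exon 5: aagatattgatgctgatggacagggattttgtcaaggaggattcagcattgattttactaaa
ITGAV exon 6: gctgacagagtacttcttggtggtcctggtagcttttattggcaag

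The libraries held 26152700 to 45144400 expected counts in the input and 16883500 to 23658000 in the pull-down, and the 9 integrin genes took 0.208% to 0.276% of them. The keratins KRT7 (432 to 497 TPM, RSEM's length-normalised abundance, in the 4 input libraries) and KRT17 (288 to 426 TPM) and the basal cell factor TP63 (2.58 to 5.40 TPM) were present, as were EPCAM and CDH1. The summed TPM of 3 endothelial markers was 0.04 to 0.12 and that of 5 leukocyte markers 1.98 to 2.55. Most of the latter came from CD14 (0.94 to 1.55 TPM) and ITGB2 (0.96 to 1.15 TPM), while PTPRC and CD3E were at 0 to 0.02 TPM. That of 6 fibroblast or mesenchymal markers was 175 to 230, of which VIM alone made up 173 to 229. COL3A1 and DCN were at 0 to 0.02 TPM. In bulk RNA, fewer cells of a type and less RNA per cell cannot be told apart.

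Per length, ITGB1 and ITGA3 led the integrin transcripts of the input. ITGB1 (ENSG00000150093, chr10:32887273-33005792, minus strand), the common beta chain, had the highest level in all 8 libraries and held 93.6 to 110.3 TPM in the input. ITGA3 (ENSG00000005884, chr17:50055968-50090481, plus strand) was second in all 8 libraries at 51.5 to 59.2 TPM, and its input values did not overlap those of ITGB1. ITGB4 (ENSG00000132470, chr17:75721328-75757818, plus strand), the hemidesmosome beta chain, held 16.6 to 21.0 TPM.

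ITGB5 (ENSG00000082781, chr3:124761948-124901418, minus strand) ranged from 10.4 to 18.7 TPM, so that it overlapped both ITGB4 and ITGA6. ITGA6 (ENSG00000091409, chr2:172427354-172506459, plus strand) held 11.1 to 13.3 TPM. ITGAV (ENSG00000138448, chr2:186590010-186680901, plus strand) held 6.94 to 9.66 TPM and ITGA5 (ENSG00000161638, chr12:54395261-54419266, minus strand) 5.28 to 8.04 TPM. Their ranges overlapped, but ITGAV took rank 6 and ITGA5 rank 7 in every library except FA_IP replicate 1, where the order was reversed. ITGA2 (ENSG00000164171, chr5:52989340-53094779, plus strand), the collagen-binding chain, was eighth in every library at 1.61 to 2.03 TPM, and ITGB3 (ENSG00000259207, chr17:47253827-47313743, plus strand) was last at 0.24 to 0.47 TPM, with 40.4 to 150 expected counts per library. The 5 alpha chains together held 0.562 to 0.719 times the TPM of the 4 beta chains. For 8 of the 9, ITGB3 being the exception with overlap, every pull-down library had a higher TPM than every input library, ITGB1 reaching 168 to 212 and ITGA3 105 to 130 TPM, so TPM is compared only within a library here, and comparisons between libraries use CPM, counts scaled to the size of the library with TMM factors.

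**Figure D1:**
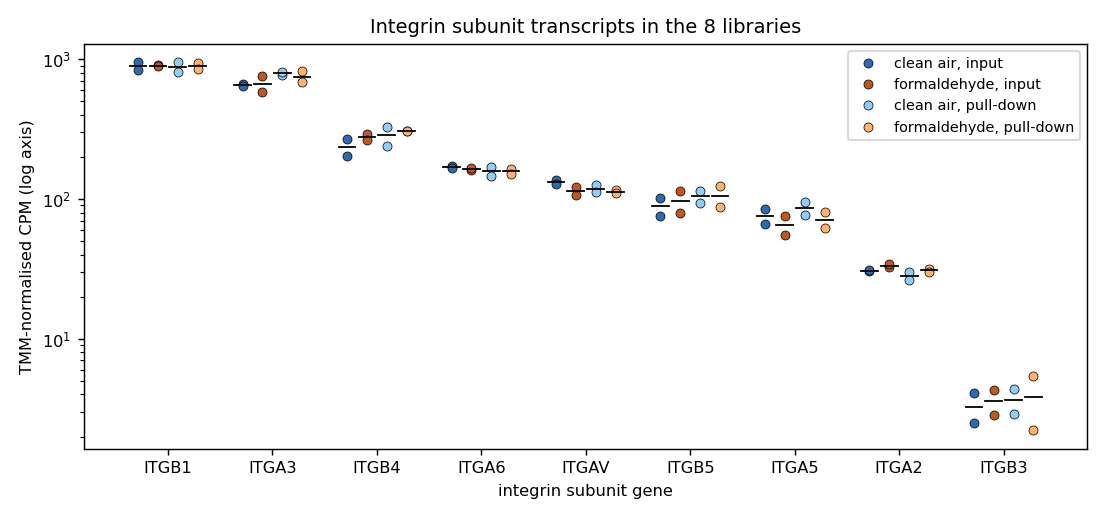
TMM-normalised CPM (log axis) of each integrin subunit gene in each library, with a point per library and a bar for the mean of the 2 libraries of a group. The group means keep the order of the genes across the 4 groups, from ITGB1 at 806 CPM or more to ITGB3 at 5.42 CPM or less. In single libraries ITGA3 passes ITGB1 (CA_IP replicate 3) and ITGB5 passes ITGAV (replicate 1 of FA_IN and of FA_IP).

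No integrin gene was called between formaldehyde and clean air in the input RNA. By edgeR's quasi-likelihood test over all genes, 0 of the 9 had an adjusted p under 0.05 and 0 an unadjusted p under 0.05. DESeq2 also called 0 of the 9 at the adjusted limit. The background was 0.00548% of the 18242 genes called (1 gene), with 611 genes at an unadjusted p under 0.05. The median log2 fold change of the 9 was 0.03 and that of all genes 0.02. ITGAV stood at 136.3 and 127.6 CPM in CA_IN and at 107.2 and 121.0 CPM in FA_IN. Its log2 fold change was -0.21 ± 0.10 (SE, 2 libraries per group; adjusted p = 0.945 by edgeR).

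ITGA6 was nearly level, at 171.1 and 167.2 CPM in CA_IN and 162.1 and 166.3 CPM in FA_IN (log2 fold change -0.04, 95% interval -0.25 to 0.16). ITGB4, its partner, stood at 204.3 and 266.5 CPM in CA_IN and at 290.9 and 263.8 CPM in FA_IN, where the lower formaldehyde library fell inside the clean air range (log2 fold change 0.24, 95% interval -0.13 to 0.60). ITGA5, the fibronectin receptor chain, stood at 84.3 and 65.8 CPM in CA_IN and at 76.1 and 54.8 CPM in FA_IN (log2 fold change -0.20, 95% interval -0.65 to 0.25). The groups of ITGB4 and of ITGA5 both overlapped, and ITGA5 was lower after formaldehyde within each replicate number. With the replicate number as a block 0 of the 9 were called (smallest adjusted p = 0.214 by edgeR), beside 258 of all 18242 genes. At an unadjusted p under 0.05 were 3, namely ITGA5, ITGAV and ITGB4, beside 2655 of all genes. The 95% interval of ITGA5 was -0.36 to -0.05. This block takes its spread from inputs and pull-downs of the same cultures, which are not independent replicates of the treatment.

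ITGA2 stood at 30.6 and 30.9 CPM in CA_IN and at 32.4 and 34.2 CPM in FA_IN (log2 fold change 0.12 ± 0.11, SE, adjusted p = 0.945 by edgeR). The fold changes of ITGB1 (0.00), ITGA3 (0.03), ITGB5 (0.12) and ITGB3 (0.15) were also not called, and those of ITGB1 and ITGA3 changed sign with the scaling of the libraries. The precision differed between genes, from an SE of 0.09 on the log2 scale for ITGA6 (95% interval 0.842-fold to 1.12-fold) to 0.22 for ITGB5 (0.766-fold to 1.53-fold) and 0.42 for ITGB3.

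In the pull-down of clean air cells 5 integrin genes stood above the input and 4 below it after TMM scaling. In the model without a block 0 of the 9 were called in either treatment, with 0 at an unadjusted p under 0.05, and DESeq2 called 0 as well. The background in this model was 1.91% of genes in clean air and 1.5% after formaldehyde. Input and pull-down were fractions of the same RNA, and once edgeR took the RNA pool as a block 4 of the 9 were called in clean air, all 4 higher in the pull-down, against a background of 17.4% of genes called in either direction and 11.6% called higher. These were ITGA3, ITGB4, ITGB5 and ITGA5. After formaldehyde, 0 of the 9 were called with this block, against a background of 10.1%. At an unadjusted p under 0.05 were 2 of the 9, beside 3960 of all 18242 genes.

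ITGA3, the laminin-binding partner of ITGB1, went from 663.4 CPM in the input to 775.8 in the pull-down in clean air replicate 1 and from 640.1 to 812.5 CPM in replicate 3. Its log2 fold change with the block was 0.28 ± 0.06 (SE, adjusted p = 0.00189 by edgeR), which is a 1.22-fold difference, and without the block 0.29 ± 0.13 (adjusted p = 0.436). After formaldehyde ITGA3 went from 754.8 to 816.4 CPM and from 580.0 to 681.6 CPM, with overlap between the groups (log2 fold change with the block 0.17, adjusted p = 0.078 by edgeR).

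ITGB4 went from 204.3 to 241.1 CPM and from 266.5 to 328.2 CPM in the 2 clean air pools, higher in each pool but with overlap between the groups (log2 fold change with the block 0.27 ± 0.06, SE, adjusted p = 0.00378 by edgeR). GALK1 lies on the opposite strand within the ITGB4 locus and held 650 to 991 counts per library against 5530 to 9751 for ITGB4. No strand setting for the counting is given in the sources used here, so reads of the shared part cannot be told apart. The other genes overlapping an integrin locus held at most 47 counts in a library.

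ITGB5, which pairs with ITGAV, went from 102.2 to 114.5 CPM and from 75.6 to 94.3 CPM (0.24 ± 0.07 on the log2 scale with the block, adjusted p = 0.016 by edgeR). ITGA5 went from 84.3 to 94.8 CPM and from 65.8 to 77.3 CPM (0.20 ± 0.07, adjusted p = 0.0467). In both, each pull-down lay above the input of its own pool while the groups overlapped, because replicate 1 was above replicate 3 in both fractions. Without the block the adjusted p of ITGB4, ITGB5 and ITGA5 were 0.568, 0.761 and 0.77. In the formaldehyde pools these 4 genes, picked by their clean air calls, stood above the input by 0.07 to 0.23 on the log2 scale and were not called. With 1 library left out of the model without a block, the formaldehyde values ranged from -0.080 to 0.38 for ITGA5 and -0.13 to 0.41 for ITGB5. Those of ITGA3 and ITGB4 stayed above 0.

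The remaining alpha chains lay below the input in both clean air pools after TMM scaling. ITGAV went from 136.3 to 126.1 CPM and from 127.6 to 111.5 CPM in clean air, and its log2 fold change with the block was -0.15 ± 0.07 (SE, adjusted p = 0.144 by edgeR). ITGA2 went from 30.6 to 30.1 CPM and from 30.9 to 26.2 CPM, and ITGA6 from 171.1 to 168.1 CPM and from 167.2 to 147.1 CPM (log2 fold change with the block -0.10, 95% interval -0.24 to 0.03). ITGB1 was level at 947.9 and 948.0 CPM in replicate 1 and 842.0 and 805.7 CPM in replicate 3. After formaldehyde the log2 fold changes with the block were -0.02 for ITGAV, -0.11 for ITGA2, -0.06 for ITGA6 and near 0 for ITGB1, and they were not called.

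Signs below zero depended on the scaling. With library size in place of TMM the median log2 fold change of all genes rose, by 0.15 in clean air and 0.17 after formaldehyde. ITGA6, ITGB1 and ITGA2 turned positive in clean air, and ITGA6, ITGAV, ITGB1 and ITGA2 after formaldehyde. ITGA3, ITGB4, ITGB5 and ITGA5 were positive in both treatments with either scaling. The change of scaling raised their values too, so it could not have turned them negative and does not test their sign. ITGB3 stood at 2.48 and 4.07 CPM in CA_IN and 2.87 and 4.39 CPM in CA_IP, too few counts for a narrow interval (log2 fold change 0.15, 95% interval -0.83 to 1.13).

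**Figure D2:**
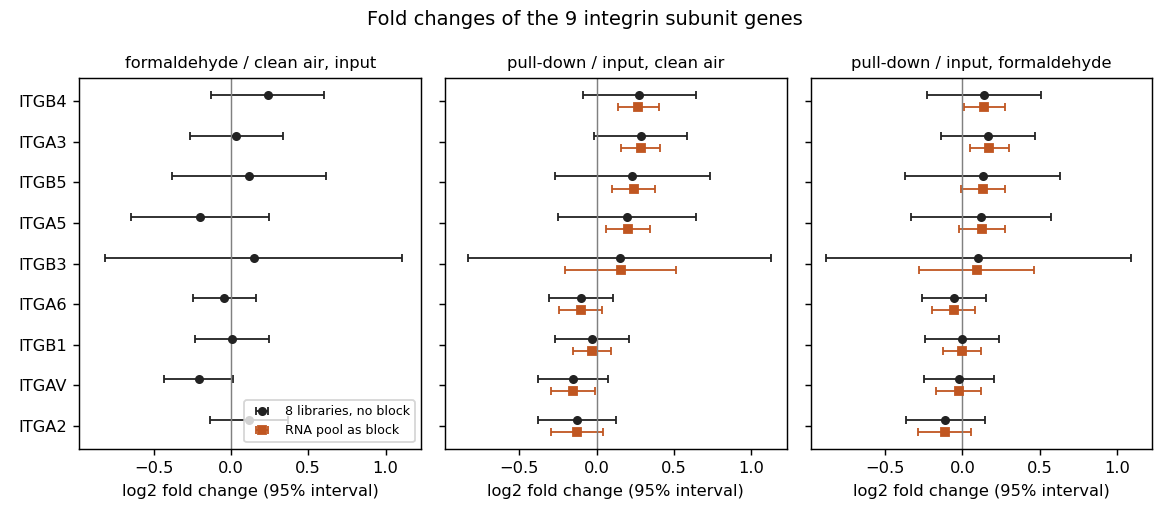
Log2 fold changes of the 9 integrin genes with their 95% intervals, for formaldehyde against clean air in the input and for pull-down against input in each treatment, fitted to 8 libraries without a block (circles) or with the RNA pool as a block (squares). In clean air with the block the intervals of ITGB4, ITGA3, ITGB5 and ITGA5 lie above 0 and their adjusted p passed 0.05; after formaldehyde those of ITGB4 and ITGA3 lie above 0, and 0 of the 9 passed.

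The difference between the treatments in pull-down against input was tested as an interaction, and 0 of the 9 genes were called in either model (background 0% without the block, 0 at an unadjusted p under 0.05 among the 9; DESeq2 also called 0 of the 9). The widest differences without the block were those of ITGAV (0.13, 95% interval -0.19 to 0.45) and ITGB4 (-0.13, 95% interval -0.65 to 0.38), and that of ITGA6 was 0.05 (95% interval -0.24 to 0.34). A call in clean air and none after formaldehyde is therefore not a shown difference between the treatments.

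The order of the integrin genes by pull-down followed their guanine content. The most abundant isoform of each gene was taken by expected counts. That isoform held on average 46.9% of the counts of ITGB4 and 40.1% of the TPM of ITGB5, so it does not stand for the whole gene there. Guanine made up 30.0% of the isoform's bases in ITGB4, 29.7% in ITGA3, 28.1% in ITGB5 and 27.6% in ITGA5, which are the 4 genes above. The share was 25.9% in ITGB3, 22.8% in ITGA6, 22.7% in ITGB1 and 20.5% in both ITGAV and ITGA2. Over the 9 genes Spearman's rho between guanine share and the log2 fold change of the pull-down was 0.95 in clean air and 0.93 after formaldehyde, and over the 17934 tested genes with a sequence it was 0.54 and 0.41. These are descriptions over genes that share the same libraries. GC content moved along with guanine, from 62.9% in ITGB4 and 60.9% in ITGA3 to 38.3% in ITGAV, and the part of guanine, of GC content or of transcript length in the pull-down was not tested. Of the 10 epithelial markers 1 was called in the clean air pull-down, KRT8 (log2 fold change 0.41, adjusted p = 0.0347 by edgeR), and the values of the other keratins lay between 0.40 and 0.51 while those of TP63, EPCAM and CDH1 were 0.03, 0.06 and 0.07. Their part in the result was not tested.

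**Figure D3:**
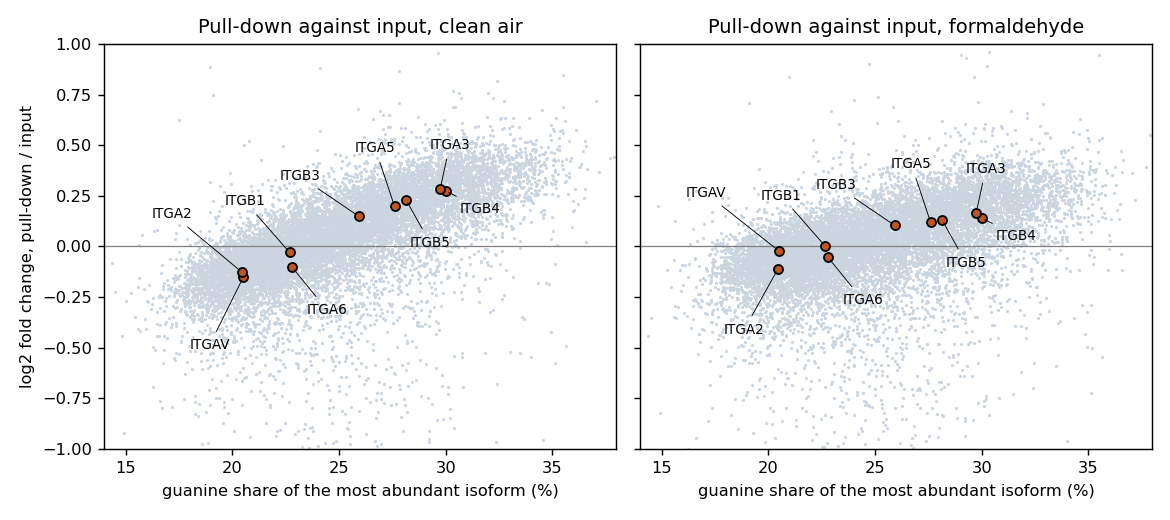
Log2 fold change of pull-down against input (model without a block) against the guanine share of each gene's most abundant isoform, for the 9 integrin genes (large points) and all tested genes with a mean count of at least 50 (small points; those beyond 1 in either direction are not drawn). ITGB4, ITGA3, ITGB5 and ITGA5, with guanine shares of 27.6% to 30.0%, lie above 0 in both treatments. ITGAV and ITGA2, with 20.5%, lie below 0 in both, though after formaldehyde ITGAV (-0.02) lies near 0 and above ITGA6 (-0.05).

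By expected counts ITGA6 was carried mainly by 2 isoforms that differ in the tail A exon shown above. ITGA6-201 (ENST00000264107), which includes the exon, took 76.6% and 77.0% of the gene's expected counts in the clean air input and 79.5% and 74.4% in the formaldehyde input. In CA_IP its share was 78.5% and 85.5%, and in FA_IP 83.3% and 81.4%. ITGA6-202 (ENST00000409080), which skips it, took 21.7% and 22.3%, 18.5% and 23.9%, 19.5% and 11.3%, and 14.2% and 15.2% in the same order. The A form was thus the larger in every library, at 2483 to 5704 expected counts against 345 to 1618 for the B form.

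Between the treatments the B form gave no call in the input, where its share was 21.99% ± 0.38 in CA_IN and 21.2% ± 3.86 in FA_IN (SD, n = 2 libraries each; log2 usage change -0.05, adjusted p = 1 by edgeR's diffSpliceDGE). In the pull-down it was 15.4% ± 5.80 in CA_IP and 14.7% ± 0.66 in FA_IP (SD, n = 2), below the input of its treatment in each of the 4 libraries. The log2 usage change was -0.50 in clean air and -0.54 after formaldehyde, and neither was called (adjusted p = 1 by diffSpliceDGE; 0.776 and 0.833 by limma on the ratio of the isoform to the rest of the gene). The 2 models differ in their ends as well as in this exon, and the lengths in the files (5618 and 5306 bases) are not those of GENCODE 44 (5488 and 5686 bases), so the boundaries used in the counting may not be those printed here.

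ITGA3 used the tail A exon almost alone. ITGA3-202 (ENST00000320031), with the exon, took 91.5% to 93.8% of the gene in the 8 libraries, and ITGA3-201 (ENST00000007722), without it, 0% to 0.394%. ITGB4 divided its counts between more isoforms. ITGB4-203 (ENST00000450894) took 42.2% to 51.1%, and ITGB4-201 (ENST00000200181), whose extra coding exon of 210 bases lies in the part for the cytoplasmic tail (chr17:75753765-75753974), took 2.85% to 7.38%. For the other genes a single isoform led by expected counts on average over the libraries. The shares were 94.9% for ITGA5-201, 94.4% for ITGB3-201, 93.5% for ITGB1-201, 83.6% for ITGAV-201, 80.2% for ITGB5-201 and 78.8% for ITGA2-201. As mean shares of TPM, which allows for length, these were 86.3%, 84.1%, 83.9%, 62.6%, 40.1% and 62.4% in the same order.

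At the isoform level 0 of the 57 integrin isoforms were called in the input, in either pull-down or in the interaction by edgeR, with 3, 3, 3 and 1 at an unadjusted p under 0.05. Of all 67873 isoforms 0%, 0.242%, 0.144% and 0% were called. At an unadjusted p under 0.05 were 2.8%, 7.06%, 5.95% and 2.92% of them. DESeq2 called 0, 1, 0 and 0 of the 57, the call being ITGA6-204, beside 121, 1338, 958 and 213 of all isoforms. Isoform usage, the change of an isoform against the rest of its gene, was tested for 56 integrin isoforms. In the input 1 was called (background 0.143%), in the clean air pull-down 1 (background 0.338%) and after formaldehyde 0 (background 0.221%). After formaldehyde 1 was at an unadjusted p under 0.05, beside 4.62% of all isoforms tested for usage. Both calls were ITGAV-202, and both rest on the same CA_IN libraries, through which alone it passed the filter. On simulated counts diffSpliceDGE also called isoforms of genes that had not been changed. With limma on isoform ratios, added after the data were seen, 0 were called in each of the 3 comparisons. In each, 3 were at an unadjusted p under 0.05, beside 2214, 4207 and 3817 of all 61615 isoforms tested for usage.

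ITGAV-202 (ENST00000374907), an isoform without the exons 5 and 6 printed above, held 113 and 75.7 expected counts in the CA_IN libraries and 0 in the other 6 libraries, in which 3 counts would be a share of at most 0.144% of ITGAV. In CA_IN its share of ITGAV was 1.90% and 1.62%. With 3 counts per library put in place of 0, its level in FA_IN was 22.1-fold, and in CA_IP 17.5-fold, below that in CA_IN. This floor allows for the error of counting alone. It does not cover a spread between replicates such as the 122 and 0 counts of ITGA2-202 in FA_IP, so these folds are not lower bounds. The isoform passed the filter of 10 counts in 2 libraries through CA_IN alone, so that a difference from CA_IN was fixed by the filter and the p-values that follow are no support for it. The usage test gave an adjusted p = 0.0361 for the input and 0.0254 for the clean air pull-down by diffSpliceDGE, and limma on isoform ratios gave 0.842 and 0.381. With the replicate number as a block the adjusted p by diffSpliceDGE were 0.177 and 0.113, and with the RNA pool as a block that for the pull-down was 0.288. The isoform is among the transcripts that the study itself picked from these libraries, so its pattern is not independent evidence. Since both groups were at 0 after formaldehyde, no fold can be given there.

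ITGA6-206 (ENST00000442250), the isoform with the 117-base exon, held 15.3 and 33.7 expected counts in FA_IP and 0 in the 6 other libraries, in which 3 counts would be a share of at most 0.0984% of ITGA6. Its share in FA_IP was 0.513% and 0.913%. With the same floor its level there was 10.5-fold above FA_IN and 8.34-fold above CA_IP, which again are not lower bounds. It passed the filter through FA_IP alone and is also among the transcripts that the study picked from these libraries, so this pattern is a description. It was not called (adjusted p = 0.591 for the isoform by edgeR, 0.322 for usage by diffSpliceDGE). Its model has 3393 bases in the files and 5803 in GENCODE 44, so the counted model may differ from the annotated isoform in more than the printed exon. ITGA6-204 (ENST00000412899), a model of 970 bases with its own first exon that ends early in the gene, held 13.5 and 0 counts in CA_IN and 54.5 and 41.0 in FA_IN. In the pull-down it held 53.1 and 96.4 counts in clean air (CA_IP) and 24.8 and 69.2 after formaldehyde (FA_IP). Both CA_IN libraries were the lowest of the 8. Its change in the clean air pull-down had an adjusted p = 0.489 by edgeR and 0.0139 by DESeq2, and its interaction had the smallest unadjusted p of the integrin isoforms (adjusted p = 1.0 by edgeR).

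The ITGA2 isoforms ITGA2-202 (ENST00000503810) and ITGA2-205 (ENST00000510722), both annotated as targets of nonsense-mediated decay and both on the study's own list, are given as counts only. ITGA2-202, which lacks a coding exon of 128 bases (chr5:53048643-53048770), held 184 and 116 counts in CA_IN and 11.7 and 120 in FA_IN. Its pull-down counts were 8.57 and 0 in clean air (CA_IP) and 122 and 0 after formaldehyde (FA_IP). ITGA2-205 held 0 and 0, 31.1 and 109, 0 and 71.5, and 0 and 28.3 in the same order. The replicates of ITGA2-202 lay far apart in FA_IN and FA_IP, and those of ITGA2-205 in CA_IP, while ITGA2-201 held 72.5% to 84.7% of the gene throughout.

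**Figure D4:**
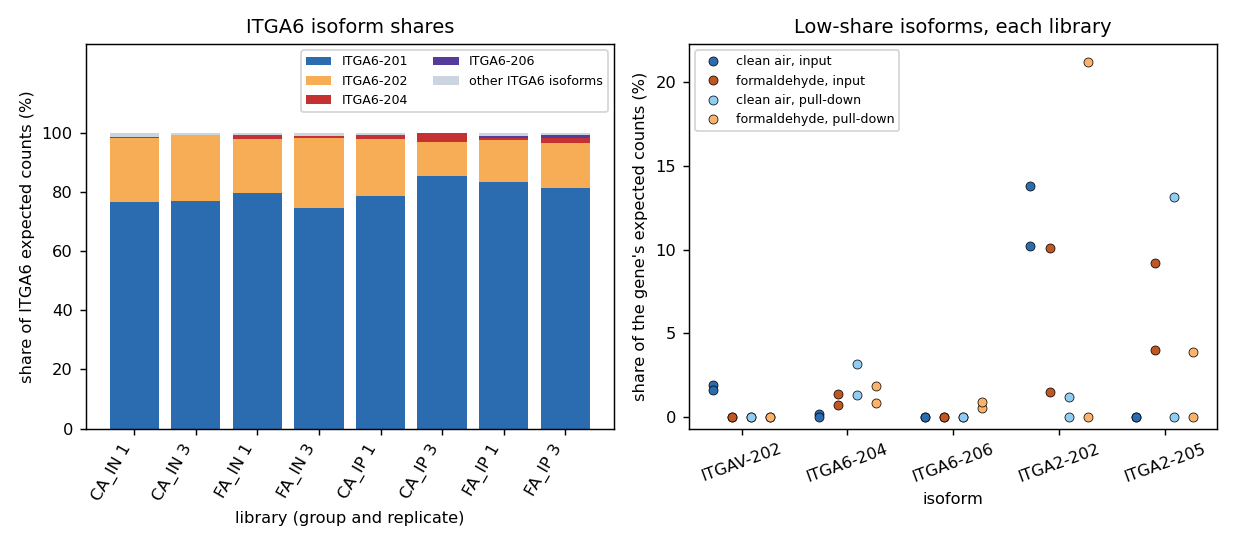
Left, the share of ITGA6 expected counts (%) taken by each isoform in each library, as stacked bars that sum to 100%. Right, the share (%) of their gene taken by 5 isoforms with few counts, a point per library coloured by group: ITGAV-202 is above 0 in CA_IN alone and ITGA6-206 in FA_IP alone, while the libraries of ITGA2-202 and ITGA2-205 scatter within groups.

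The other genes of the adhesion system gave few calls, counted here without the block and to be read against all genes. Of all genes 0.00548% were called in the input, 1.91% in the clean air pull-down (27 higher and 322 lower), 1.5% after formaldehyde (6 higher and 268 lower) and 0% in the interaction, and 3.35%, 12.6%, 9.1% and 1.07% were at an unadjusted p under 0.05 in this order. Among 17 other integrin subunits 11 were tested, 0 were called in the input, and 1 was called lower in both pull-downs, ITGAE, the E-cadherin receptor chain known from intraepithelial lymphocytes. Its log2 fold change was -0.69 in clean air and -0.74 after formaldehyde (adjusted p = 0.0317 and 0.0272 by edgeR), and it held 11.8 to 14.4 TPM in the input, above ITGA1 at 1.65 to 2.38 TPM.

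Of 27 matrix ligands 25 were tested and 0 were called in any comparison, with 0 at an unadjusted p under 0.05 in each. FN1, the ligand of ITGA5 with ITGB1, held 50.9 to 62.1 TPM in the input and THBS1 45.4 to 55.8 TPM. Of 30 cytoplasmic adhesion proteins, all tested, 0 were called, with 1, 5, 2 and 0 at an unadjusted p under 0.05 in the input, the 2 pull-downs and the interaction. The most abundant were the actin crosslinkers FLNA (57.7 to 73.3 TPM) and ACTN4 (33.2 to 41.4 TPM). Of 8 hemidesmosome and tetraspanin partners 0 were called, with 0 at an unadjusted p under 0.05 in the input, 4 in the clean air pull-down, 3 after formaldehyde and 0 in the interaction. CD151, the tetraspanin that binds ITGA3 and ITGA6 and the second most abundant after CD63, had a log2 fold change of 0.41 in clean air (adjusted p = 0.0578 by edgeR). The median log2 fold changes in the clean air pull-down were -0.09, 0.05, 0.10 and 0.11 for the 4 lists in this order, beside 0.15 for the 9 integrin genes and 0.02 for all genes.

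By TMM-normalised log2 CPM over the 8 libraries, the genes with the pattern most like that of ITGA6 were RAB33B-AS1 (Pearson's r = 0.990), the cohesin acetyltransferase ESCO2 (0.982) and the centromere protein SGO2 (0.981). These values describe 8 libraries that are shared by all genes, and over so many genes high values are found for any pattern.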

How the data were processed

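The authors trimmed the paired 75-base reads with cutadapt, aligned them with STAR 2.6.0a to GRCh38 with Ensembl 94 annotation, and quantified isoforms with RSEM 1.2.25. The deposited tables hold, for each of 206601 transcripts, the RSEM expected count, TPM and effective length in bases (other columns were not used). The antibody clone is given in 2 ways in the deposited descriptions. 3 deposited tables of the authors' DESeq2 comparisons, with log2 fold changes and p-values, were not used.

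Here expected counts were summed by gene, rounded, and kept at 10 or more in at least 2 libraries. edgeR 4.0.16 (TMM, quasi-likelihood, diffSpliceDGE; prior count 0.125) was fitted to all 8 libraries in R 4.3.3, with Benjamini-Hochberg adjustment over all features at 0.05. Alternatives used DESeq2 1.42.0, limma 3.58.1 and other scalings, filters and blocks. The tests were tried on simulated counts. Members and lists were chosen with earlier results of these data known. All 9 genes were named, with their leading isoform, ITGA6 isoforms of at least 5% mean share, called isoforms, 4 that the study lists, and those of smallest p in the input and interaction.

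That input and pull-down of a number share an RNA pool comes from the study's methods. Over 12639 genes, the difference between replicates 1 and 3 correlated between input and pull-down with r = 0.718 in clean air and 0.564 after formaldehyde, and with r = 0.441 to 0.534 between groups of different cultures. Replicate numbers come from the deposited file names. With 2 libraries per group, the spread was estimated over all 8 libraries together. Without a block, p-values rest on the differences between libraries of a group. With the RNA pool as a block, they rest on how pull-down against input varied between the pools of a treatment. The input and the pull-down of a culture share their RNA and are not independent cultures. Folds and limits from 3 counts allow for the error of counting alone, and without molecular identifiers several reads may stem from 1 molecule.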

Additional observations from a re-analysis of the deposited data

How the results depend on the processing

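The counts of called integrin genes and isoforms were 0 in every setting run except the following. With the RNA pool as replicate block, 4 genes were called in the clean air pull-down. Without the filter, 1 isoform (ITGAV-202) was called in the input and 1 in the clean air pull-down, and DESeq2 called 1 (ITGA6-204) in the latter. The usage call in the input and that in clean air each went from 1 to 0 with a mean count of at least 50 (ITGAV-202 is then not tested), with the replicate number as replicate block and with limma on isoform ratios, and that in clean air also with the RNA pool as replicate block. With 1 library left out, each of these usage counts lay between 0 and 1. ITGAV-202 is not tested without either CA_IN library, was not called without either library of FA_IN or CA_IP in the input (adjusted p = 0.265, 0.342, 0.0727 and 0.0674 by diffSpliceDGE), and in clean air not without either CA_IP library, where the count of 1 without CA_IP replicate 1 is ITGA6-204. Of all genes, the replicate block called 258 in the input, 1941 and 953 in the pull-downs and 3 in the interaction, and the RNA pool as replicate block 3179, 1835 and 25, against 1, 349, 274 and 0 without a block. The blocks changed no other call of an integrin gene or isoform.

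Signs of uncalled values changed as follows (log2 scale). With library size in place of TMM, the input values of ITGA3 and ITGB1 became -0.0095 and -0.038, the clean air pull-down values of ITGA6, ITGB1 and ITGA2 0.046, 0.12 and 0.021, and those after formaldehyde of ITGA6, ITGAV, ITGB1 and ITGA2 0.12, 0.15, 0.17 and 0.060. The input value of ITGB1 became -0.019 without the filter, -0.014 with a mean count of at least 50, -0.0025 with 4 libraries and -0.0050 with effective lengths, with which ITGAV after formaldehyde became 0.0059. The input usage change of ITGA6-201 became 0.0013 without the filter and 0.011 with a mean count of at least 50. Ranges over the libraries left out that crossed 0 were, in the input, -0.18 to 0.19 for ITGA3, -0.087 to 0.091 for ITGB1, -0.23 to 0.54 for ITGB3, -0.17 to 0.35 for ITGB5, -0.050 to 0.043 for ITGA6-201 usage and -0.26 to 0.12 for ITGA6-202 usage. In the clean air pull-down they were -0.15 to 0.083 for ITGB1 and -0.18 to 0.53 for ITGB3. After formaldehyde they were -0.080 to 0.38 for ITGA5, -0.12 to 0.025 for ITGA6, -0.10 to 0.085 for ITGAV, -0.073 to 0.088 for ITGB1, -0.69 to 0.58 for ITGB3 and -0.13 to 0.41 for ITGB5, and for the interaction -0.045 to 0.15 for ITGA6 and -0.34 to 0.10 for ITGB4. By the mean CPM of the clean air input in place of TPM, ITGA6, ITGAV and ITGB5 took ranks 4, 5 and 6 in place of 5, 6 and 4. As a share of TPM, ITGA6-201 held 65.4% to 68.1% and ITGA6-202 12.9% to 20.6% of ITGA6 as group means, and ITGA6-202 stayed lower in both pull-downs. The short ITGA6-204 held 0% to 18.4% of ITGA6 TPM in single libraries. In CA_IP it held 8.10% and 18.4%, beside 17.5% and 9.81% for ITGA6-202. The cause of these changes was not tested, other than where a feature left the test.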
